A study of Mus musculus with 70 samples.

Results

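The plasminogen activator system was followed through 5 of the 55011 genes in a mouse muscle RNA-seq count table. They were taken by name, with earlier results of these data known. They are the activators Plau (urokinase) and Plat (tissue plasminogen activator), the urokinase receptor Plaur, and the inhibitors Serpine2 (protease nexin-1) and Serpinb2 (plasminogen activator inhibitor-2). All 5 were present in the table. The study sequenced 70 libraries in 28 groups and 6 experiments, most of them of muscle mesenchymal stromal cells (MmSCs), the fibroblast-like progenitors of the tissue. In 5 experiments each library came from 1000 hindlimb cells that had been sorted 2 times by flow cytometry, and the remaining experiment used 2 ng of RNA from whole tibialis anterior muscle.

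Urokinase and tissue plasminogen activator are secreted serine proteases that cut plasminogen to plasmin, which dissolves fibrin, opens the extracellular matrix and activates matrix metalloproteinases and latent growth factors such as hepatocyte growth factor. The urokinase receptor is anchored by a lipid to the outer face of the cell membrane and holds urokinase at the cell surface. Protease nexin-1 acts on urokinase, tissue plasminogen activator and thrombin near the cell, and plasminogen activator inhibitor-2 stays largely inside the cells that make it. In skeletal muscle, urokinase is known for its part in clearing fibrin and in regeneration after injury.

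The cytokine experiment used C57BL/6J mice without injury and their MmSCs. Of its 11 groups, 3 received Osm (Oncostatin M), TNFa, Il-1b and Il-17A together, called the mix here, into the peritoneal cavity and were sorted 2 h (2 libraries), 4 h (1 library) or 8 h (2 libraries) later. A further 7 groups, each of 2 libraries, were sorted at 2 h after 1 cytokine alone (Il-1b, TNFa, Osm or Il-17A) or after Osm together with Il-1b, TNFa or Il-17A, and 2 libraries came from mice given PBS, for which no time is stated. The compartment experiment took MmSCs, satellite cells (MuSCs, the muscle stem cells), CD31+ cells and CD45+ cells of C57BL/6J mice, at rest and at day 1 of injury by cardiotoxin (a venom toxin that kills muscle fibres), with 3 libraries in each of 8 groups. The reporter experiment took Thy1.1+ and Thy1.1- MmSCs from Il6RD mice, a reporter and depleter strain for cells that make Il6, with Thy1.1 as the mark, 12 h after cardiotoxin (3 libraries each). The whole-muscle experiment compared C57BL/6J muscle at day 7 after cardiotoxin under an anti-Cxcl5 antibody or control IgG (3 libraries each). The remaining pair of experiments took MmSCs of dystrophin-deficient DMDmdx mice aged 2.5 (3 libraries), 7 (3 libraries) and 12.5 weeks (2 libraries, 12 weeks in their titles), and MmSCs at day 1 after cardiotoxin from Il1b-KO (3 libraries) and Il1b-WT littermates (2 libraries). Ages of the other mice are not given in the labels, no mice with normal dystrophin were analysed beside the mdx mice, and no uninjured mice beside the Il1b genotypes.

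Total counts per library ran from 2252373 to 8408842, with a median of 5562258.5. The sorted cells carried the markers of their labels: the summed level of 7 leukocyte genes (Ptprc and others) was 10384 to 13113 CPM (counts scaled to library size) in CD45+ libraries and at most 2.34 CPM in the MmSC libraries of the same experiment, and 8 endothelial genes summed to 8799 to 12134 CPM in CD31+ libraries. Pax7, which defines satellite cells, averaged 731 ± 71.6 CPM in resting MuSCs (SD, n = 3) and 0.06 ± 0.11 CPM in resting MmSCs. Thy1 and Il6 could be read as checks of the reporter sort only with overlap: Il6 was 52.7 to 289.9 scaled CPM in Thy1.1+ libraries and 22.0 to 67.2 in Thy1.1- libraries. Il1b itself was near 0 in MmSCs of both Il1b genotypes (0 to 1 and 2 to 5 counts), so these cells do not check the knockout.

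In the GENCODE M21 annotation of GRCm38, Plau lies at chr14:20836660-20843385 on the plus strand, Plaur at chr7:24462484-24475968 (plus), Plat at chr8:22757727-22782844 (plus), Serpine2 at chr1:79794197-79861180 (minus) and Serpinb2 at chr1:107511423-107535478 (plus). All 5 are protein-coding. The span of Serpinb2 also holds Serpinb10 on the same strand, so reads could be shared between them. Serpinb10 had 0 counts in injured MmSCs of the compartment experiment, where Serpinb2 was present. In the Il1b experiment Serpinb10 had 7 and 6 counts in Il1b-WT and 2, 0 and 2 in Il1b-KO libraries. In CD45+ cells it averaged 42.5 scaled CPM at rest and 26.6 after injury, above Serpinb2 at 0.91 and 7.41. Whether reads were shared was not tested. The promoters of Plaur, which was higher than PBS in every injected group, and of Serpinb2, which was at 0 counts in resting MmSCs, are shown from the RefSeq table for GRCm38.p6, from 250 bases before to 50 bases after the start site, 5′ to 3′ along the gene. Capitals mark every match, on either strand, to the AP-1 element TGANTCA, the SP1 box GGGCGG, the TATA box TATAAA and the STAT element TTCNNNGAA.
Plaur, chr7:24462233-24462532, plus strand: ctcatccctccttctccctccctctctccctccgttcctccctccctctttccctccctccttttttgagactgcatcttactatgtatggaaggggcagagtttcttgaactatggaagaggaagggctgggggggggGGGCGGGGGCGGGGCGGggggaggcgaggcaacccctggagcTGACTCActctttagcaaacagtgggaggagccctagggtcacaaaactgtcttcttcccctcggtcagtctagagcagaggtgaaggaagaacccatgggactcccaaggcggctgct
Serpinb2, chr1:107511173-107511472, plus strand: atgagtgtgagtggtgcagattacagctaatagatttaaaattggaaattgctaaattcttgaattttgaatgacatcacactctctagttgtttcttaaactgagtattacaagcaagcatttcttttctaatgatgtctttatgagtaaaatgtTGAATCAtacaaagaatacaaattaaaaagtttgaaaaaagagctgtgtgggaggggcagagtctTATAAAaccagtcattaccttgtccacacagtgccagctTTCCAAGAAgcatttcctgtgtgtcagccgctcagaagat
Plaur held 1 AP-1 match, 69 bases before the start site, and 3 SP1 boxes, 111, 105 and 100 bases before it, the last of which overlap by a base. Serpinb2 held 1 AP-1 match 94 bases before the start site, 1 TATA box 29 bases before it and 1 STAT match 10 bases after it. Another start site of Serpinb2 is annotated, and its promoter is not shown. The same AP-1, TATA and STAT matches lie 181, 116 and 77 bases before that site. Neither Plaur nor Serpinb2 held the cyclic AMP element TGACGTCA or a match to the NF-kB consensus. Among all 32851 promoters of this length in the table, 7.81% held TGANTCA, 35.66% GGGCGG, 13.62% TATAAA, 8.30% TTCNNNGAA, 1.79% TGACGTCA and 8.46% the NF-kB consensus. A match describes the letters only. The table matched 3 of the 5 members; the promoter of Serpine2, with 6 SP1 boxes, is not shown, and Plau and Plat had no entry.

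Per length, the resting stromal cell carried mostly the activator Plau and the inhibitor Serpine2. In MmSCs of uninjured C57BL/6J muscle, mean levels in CPM per kilobase of exon were 161.0 for Plau, 137.7 for Serpine2, 54.7 for Plat, 2.98 for Plaur and 0 for Serpinb2. Length here is that of all annotated exons of a gene merged, 2367 bases for Plau and 8287 for Serpine2. The orders depend on this choice. On plain CPM, Serpine2 averaged 1141 and Plau 381 in the same group. At 7 weeks in mdx mice, Plau stood at 566.4, Plat at 130.5, Plaur at 109.3, Serpinb2 at 72.2 and Serpine2 at 71.7 CPM per kilobase. In Thy1.1+ MmSCs, Serpinb2 had the highest mean of the 5 at 269.7 CPM per kilobase. Its libraries ran from 82.0 to 442.0, on both sides of those of Plau (198.7 to 220.1). The map of levels per exon length shows these orders side by side.

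**Figure D1:**
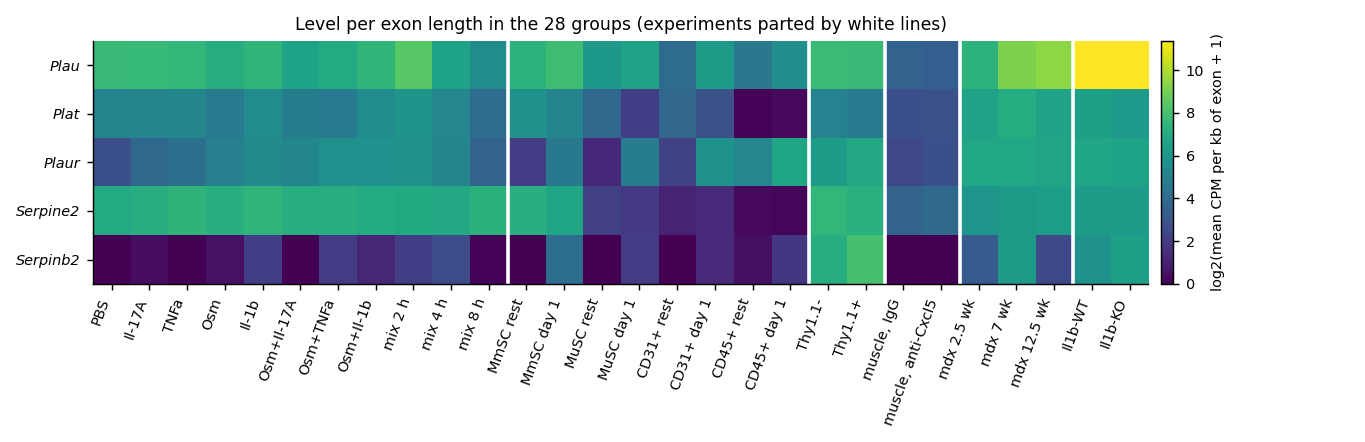
Mean level of the 5 genes (rows) in the 28 groups (columns), as log2 of mean CPM per kilobase of exon plus 1; white lines part the experiments. Plaur and Serpinb2 are darker in resting than in injured MmSCs of the compartment experiment, while Serpine2 is bright in every MmSC group and dark in the other sorted cells.

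Plau, Plat and Plaur rose within 2 h of the cytokine mix, and by 8 h both activators had fallen below PBS. The 2 h calls of Serpine2 and Serpinb2 depended on the libraries and settings used. Tests were run on counts with edgeR's quasi-likelihood test over all genes of the experiment, with Benjamini-Hochberg adjustment and a threshold of 0.05. Values beside tests are scaled CPM, CPM corrected by the scaling factors of the test. At 2 h, 5 of 5 members were called, all of them higher than in PBS, beside 38.5% of all genes tested. At 4 h, 3 members were called, 2 higher and 1 lower (36.4% of all genes), and at 8 h 4 were called, 2 higher and 2 lower (28.4%). Every comparison with PBS used the same 2 PBS libraries, so these comparisons are not independent of each other. The 4 h group is 1 library, so its standard errors and p-values take their spread from the other groups, on the assumption that it varies as they do. The 7 PBS and mix libraries also stood apart from the 14 libraries of single and paired injections, with 21537 to 23154 genes detected against 19285 to 21399, and 0.87% to 1.64% of counts on Gm10800, a predicted gene, against 0.36% to 0.74%. In comparisons of single and paired injections with PBS or the mix, this difference between libraries and the treatment cannot be told apart.

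Plau, the urokinase gene, was at 427.5 and 407.9 scaled CPM in the PBS libraries. It stood at 833 and 1159 at 2 h, at 228 at 4 h, and at 92.3 and 90.1 at 8 h. The groups did not overlap: the level was above PBS at 2 h and below it at both later times. The fitted log2 change from PBS was 1.25 ± 0.17 (SE, edgeR adjusted p = 6.05e-06) at 2 h, -0.88 ± 0.22 (adjusted p = 0.00318) at 4 h, where 1 library stands for the group, and -2.20 ± 0.18 (adjusted p = 1.27e-08) at 8 h. Plat, the other activator, followed a like course, from 180.3 and 183.0 scaled CPM in PBS to 445.5 and 440.2 at 2 h, 231.5 at 4 h, and 89.2 and 81.9 at 8 h. Its change was 1.29 ± 0.15 (adjusted p = 5.2e-07) at 2 h, did not pass the test at 4 h (0.35, adjusted p = 0.129), and was -1.09 ± 0.15 (adjusted p = 9.72e-06) at 8 h. Between 2 h and 8 h, 4 members were called, all lower at 8 h, beside 35.3% of all genes; Plau fell by 3.45 ± 0.19 and Plat fell by 2.37 ± 0.15 on the log2 scale.

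Plaur, which holds urokinase on the membrane, had the highest fitted change of the 4 members with counts in PBS. It rose from 11.8 and 14.3 scaled CPM in PBS to 192 and 170.5 at 2 h, was 92.6 at 4 h, and still stood at 24.3 and 25.4 at 8 h. Every injected library was above both PBS libraries. The change was 3.79 ± 0.20 (adjusted p = 4.06e-12) at 2 h, 2.82 ± 0.22 at 4 h (1 library, adjusted p = 2.17e-09) and 0.93 ± 0.20 (adjusted p = 0.00105) at 8 h.

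Of the inhibitors, Serpinb2 was absent from the counts of both PBS libraries and had 31 and 84 counts at 2 h, 106 at 4 h, and 0 and 2 at 8 h. With each PBS library set to a floor of 3 counts, and on the scaled CPM used for every fold of this gene, that was at least 23.3-fold higher than PBS at 2 h (adjusted p = 0.0184) and at least 32.1-fold higher at 4 h (1 library, adjusted p = 0.0185). It was 69.8-fold lower at 8 h than at 2 h (95% counting interval 18.9 to 583.3, counting error only; adjusted p = 0.0356). The call at 2 h was lost without replicate 2 of the mix (adjusted p = 0.0753) and without either PBS library (0.0929 and 0.09), that at 4 h without either PBS library (0.0861 and 0.0828), and that of 8 h against 2 h without mix 2 h replicate 2 (0.141) or either 8 h library (0.194 and 0.11). DESeq2 made none of these 3 calls (adjusted p = 0.124, 0.197 and 0.306).

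Serpine2, which also restrains thrombin, moved little beside the others. It was 892 and 843 scaled CPM in PBS, 1087 and 1288 at 2 h, 956 at 4 h, and 1222 and 1111 at 8 h, with every library above both PBS libraries. The change was 0.45 ± 0.13 (adjusted p = 0.00706) at 2 h and 0.43 ± 0.13 (adjusted p = 0.0143) at 8 h. The 2 h call was lost without replicate 2 of the mix (0.33, adjusted p = 0.11) or PBS replicate 2 (0.39, adjusted p = 0.0772), the 8 h call without 8 h replicate 1 (0.35, adjusted p = 0.137) or PBS replicate 2 (0.38, adjusted p = 0.114). When library totals replaced the scaling factors, an alternative that moves the median of all genes at 2 h from -0.06 to -0.58, the 2 h change turned to -0.06 (adjusted p = 0.691).

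**Figure D2:**
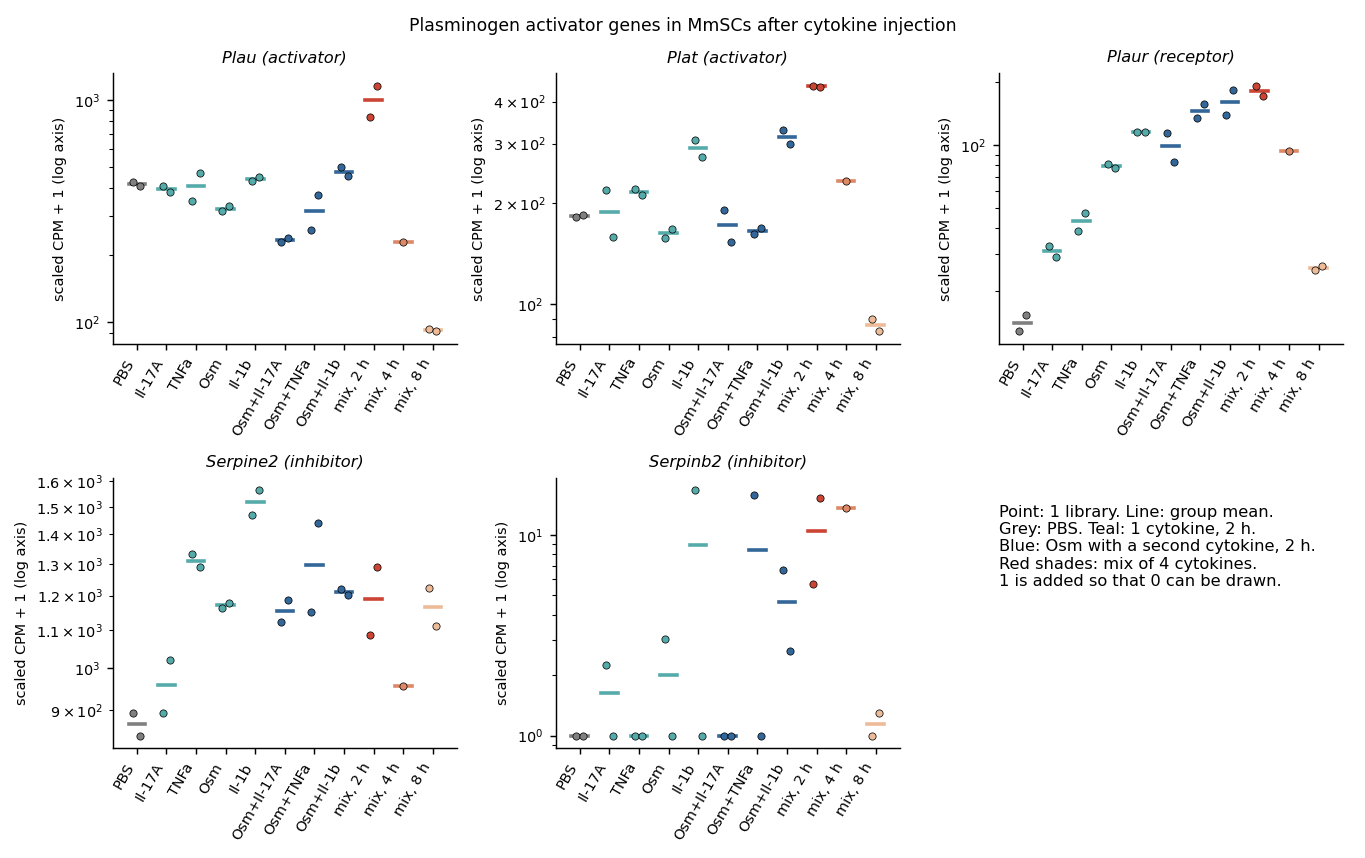
Scaled CPM plus 1 (log axis) of each gene in the 21 libraries of the cytokine experiment; points are libraries and lines group means. Plau and Plat stand above PBS at 2 h of the mix and below it at 8 h, Plaur stands above PBS in every injected group, and Serpinb2 is at 0 in both PBS libraries.

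In the groups given 1 of the 4 cytokines alone for 2 h, Plaur was higher than PBS each time. Plau did not pass the threshold in any of them. These libraries stood apart from those of PBS, and that difference and the treatment cannot be told apart. Plaur was 114.4 and 114.9 scaled CPM after Il-1b, 79.7 and 77.0 after Osm, 37.9 and 46.2 after TNFa, and 31.8 and 28.1 after Il-17A, without overlap between any of these groups and PBS. The log2 changes were 3.13 ± 0.19 (adjusted p = 1.36e-10), 2.58 ± 0.19 (1.83e-09), 1.69 ± 0.19 (3.18e-06) and 1.198 ± 0.198 (0.00243) in that order. The Il-17A call was lost without PBS replicate 1 (1.07, adjusted p = 0.0526). Plau stayed between 314 and 469.2 scaled CPM in these 8 libraries. Both Osm libraries (314 and 331) lay below both PBS libraries, a change that did not pass (-0.37 ± 0.17, adjusted p = 0.0996). Both Il-1b libraries (430 and 448) lay just above PBS. After Osm, Plau was called lower when library totals replaced the scaling factors (-0.62, adjusted p = 0.00654).

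The activator Plat was above PBS after Il-1b, at 305.8 and 273.0 scaled CPM (0.67 ± 0.15, adjusted p = 0.00118). It did not pass the test with TNFa, Osm or Il-17A, except lower with Osm under library totals (-0.43, adjusted p = 0.0379). With library totals in place of scaling factors the Il-1b change was 0.36 and was not called (adjusted p = 0.0783). Serpine2 was 1468 and 1564 scaled CPM after Il-1b, 1330 and 1287 after TNFa, 1163 and 1178 after Osm, and 893.5 and 1020 after Il-17A. It stood above PBS by 0.81 ± 0.13 after Il-1b (adjusted p = 4.64e-05), by 0.59 ± 0.13 after TNFa (0.00278) and by 0.43 ± 0.13 after Osm (0.0112). The TNFa call was lost without PBS replicate 2 (0.54, adjusted p = 0.0526), and the Osm call without that library (0.38, adjusted p = 0.101), without Osm replicate 2 (0.40, adjusted p = 0.0666) or with library totals (0.18, adjusted p = 0.256).

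Serpinb2 was uneven between libraries given the same cytokine. Il-1b gave 89 counts in replicate 1 and 0 in replicate 2, Osm 14 and 0, Il-17A 8 and 0, and TNFa 0 in both. The Il-1b group was at least 19.5-fold above PBS (adjusted p = 0.0273), a call that was lost without either PBS library (0.122 and 0.118) or with DESeq2 (0.153), and nothing was left to compare without Il-1b replicate 1. In all, 4 members were called for Il-1b, 2 for TNFa, 2 for Osm and 1 for Il-17A, each of them higher than PBS, where 33.1%, 14.8%, 34.3% and 4.95% of all genes were called in either direction.

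**Figure D3:**
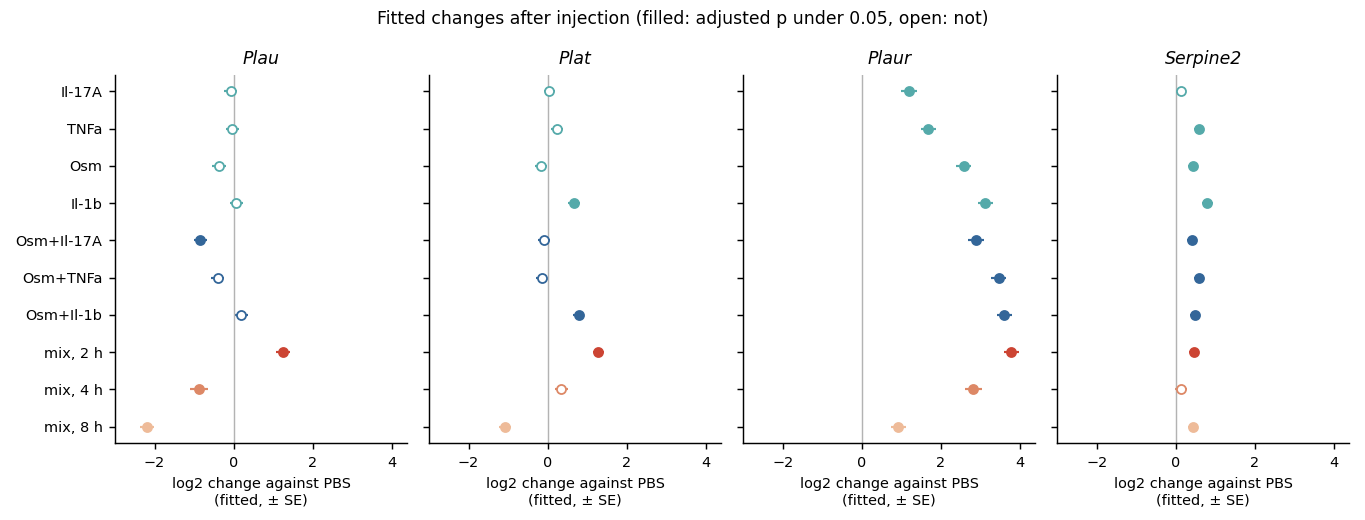
Fitted log2 change from PBS (± SE) of 4 members for the 10 injected groups; filled points passed an adjusted p of 0.05 and open points did not. Plaur is filled and above 0 in every row, while Plau is above 0 and filled only in the row of the mix at 2 h.

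Plaur also stood above PBS after each paired injection, and the pairs were compared with single cytokines. Plaur was 137.9 and 182.7 scaled CPM after Osm with Il-1b, 134.2 and 155.4 after Osm with TNFa, and 113.4 and 81.5 after Osm with Il-17A, or 3.62 ± 0.20, 3.47 ± 0.20 and 2.90 ± 0.19 above PBS on the log2 scale. Adding Osm to TNFa raised Plaur by 1.78 ± 0.18 over TNFa alone (adjusted p = 3.85e-07; 2 members were higher, with 18.2% of all genes called). Adding Osm to Il-1b left Plaur 0.48 ± 0.17 higher, which did not pass (adjusted p = 0.0967), and 0 members were called there, by DESeq2 as well, with 2 at an unadjusted p under 0.05 and 7.03% of all genes called. Adding Il-17A to Osm also gave 0 calls by either tool, with 1 member at an unadjusted p under 0.05 (1.22% of all genes called).

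The change after Osm with Il-1b was smaller than the sum of both single changes for Plaur, by 2.10 ± 0.26 (adjusted p = 1.03e-05). For Serpine2 it was smaller by 0.76 ± 0.18 (adjusted p = 0.00583). These were 2 members, both lower, where 15.8% of all genes departed from the sum in this test. This test, like those of the other pairs, includes the PBS libraries, which stood apart from the single and paired injections. That difference between libraries and a departure from the sum cannot be told apart. For Osm with TNFa, Plaur differed from the sum by -0.80 ± 0.26 (adjusted p = 0.0709) and for Osm with Il-17A by -0.88 ± 0.26 (0.0754), and 0 members were called by edgeR or DESeq2, with 2 and 1 at an unadjusted p under 0.05 and 5.91% and 2.56% of all genes called. The Plaur value for Osm with Il-17A was called without replicate 1 of that pair (-1.15, adjusted p = 0.0331).

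The urokinase gene was lower than PBS after Osm with Il-17A, at 229.0 and 237.4 scaled CPM (-0.84 ± 0.17, adjusted p = 0.000629). After Osm with TNFa it was 258.9 and 372.7 and missed the threshold (-0.41, adjusted p = 0.0701). That value passed without replicate 2 of the pair (-0.69, adjusted p = 0.0105) and with DESeq2 (adjusted p = 0.0362), DESeq2 size factors (-0.44, 0.0474), no filter on low counts (-0.43, 0.0279) and library totals (-0.75, 0.00136). Among the pairs, Plat was above PBS after Osm with Il-1b, at 328.8 and 298.1 scaled CPM (0.79 ± 0.15, adjusted p = 0.000183). With library totals that change was 0.35 and was not called (adjusted p = 0.0708). After Osm with TNFa, Plat was called lower under library totals alone (-0.50, adjusted p = 0.0149). Serpine2 was called higher in the 3 pairs, by 0.41 to 0.58, and in none of them with library totals (0.04 to 0.23). It lost the call without PBS replicate 2 for Osm with Il-1b (0.42, adjusted p = 0.055), and for Osm with Il-17A without PBS replicate 1 (0.43, adjusted p = 0.0565), PBS replicate 2 (0.35, 0.126) or replicate 2 of the pair (0.34, 0.115). Members called against PBS were 3 higher for Osm with Il-1b, 3 higher for Osm with TNFa, and 2 higher and 1 lower for Osm with Il-17A, beside 41.9%, 37% and 35.6% of all genes.

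Serpinb2 had 25 and 8 counts after Osm with Il-1b, 93 and 0 after Osm with TNFa, and 0 in both libraries after Osm with Il-17A. Osm with TNFa was at least 21.04-fold above PBS (adjusted p = 0.0258), while Osm with Il-1b was at least 8.98-fold above it and did not pass (adjusted p = 0.0622; 3.59e-08 with no filter on low counts). Osm with TNFa was also at least 20.3-fold above TNFa alone (adjusted p = 0.0484). Both calls rest on replicate 1 of the pair, since replicate 2 had no count. The first was also lost without either PBS library (0.116 and 0.113), the second without either TNFa library (0.183 and 0.177), and both with DESeq2 (0.149 and 0.219).

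Between injections at 2 h, Il-1b gave more Plaur than TNFa (1.45 ± 0.18, adjusted p = 1.96e-05; 1 member called, 10.3% of all genes). Osm gave less Plat than Il-1b (-0.85 ± 0.15, adjusted p = 0.000389) and less Plaur (-0.55 ± 0.17, adjusted p = 0.0462), the 2 members called there (9.65% of all genes). The latter was lost with any of these 4 libraries left out (adjusted p = 0.108 and 0.148 without Il-1b replicates 1 and 2, and 0.18 and 0.223 without Osm replicates 1 and 2) and with library totals (0.0917). The full mix had more Plau than Osm with Il-1b, which stood at 497.2 and 453.7 scaled CPM (1.07 ± 0.17, adjusted p = 0.00276; 1 member called, 3.01% of all genes). Without replicate 2 of the mix that difference was 0.81 (adjusted p = 0.0522).

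The wider pathway was counted over 36 genes in 5 lists (other inhibitors, plasminogen and its binding proteins, partners and clearance receptors, substrates, and coagulation genes), of which 29 were tested here. At 2 h of the mix, 8 rose and 2 fell, with a median log2 change of 0.01 beside -0.06 for all genes, of which 38.5% were called. Tfpi2, an inhibitor of plasmin and tissue factor, rose by 5.14 ± 0.23 and Thbd (thrombomodulin) by 3.38 ± 0.23, while F3 (tissue factor) fell by 0.75 ± 0.22. The substrates Hgf and Mmp3 rose by 1.54 ± 0.42 and 2.303 ± 0.637. At 8 h, 8 rose and 13 fell, with a median of -0.58 beside 0.08 for all genes, of which 28.4% were called. Anxa2 and S100a10, which together bind plasminogen at the surface, fell by 1.17 ± 0.17 and 1.01 ± 0.18, and Igf2r, a receptor that takes up proteins at the surface, fell by 2.86 ± 0.20.

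Among the 4 sorted compartments at rest, both activators and Serpine2 were marks of the stromal cell, and the receptor was highest in CD45+ cells. Serpine2 was 1266 to 1458 scaled CPM in resting MmSCs, 16.2 to 28.9 in MuSCs, 6.29 to 12.6 in CD31+ cells and 0.59 to 2.65 in CD45+ cells. The MmSC level was 5.87 ± 0.32 above MuSCs, 7.28 ± 0.35 above CD31+ cells and 9.48 ± 0.42 above CD45+ cells on the log2 scale. Plau was 427.1, 380.9 and 565.7 scaled CPM in MmSCs, 107.6 to 135.4 in MuSCs, 25.1 to 43.04 in CD31+ cells and 31.4 to 72.1 in CD45+ cells. The difference was 1.89 ± 0.24, 3.79 ± 0.26 and 3.09 ± 0.25 in the same order, and no MmSC library overlapped another compartment.

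Plat was 509, 430 and 312 scaled CPM in resting MmSCs, 50.3 to 97.2 in MuSCs and 72.2 to 78.6 in CD31+ cells, and at most 0.87 in CD45+ cells. Plaur was low in MmSCs (8.70 to 9.83) and lower in MuSCs (1.97 to 3.79; difference 1.78 ± 0.44, adjusted p = 0.00204), overlapped between MmSCs and CD31+ cells (5.39 to 13.2), and was 63.1 to 159.5 in CD45+ cells (-3.38 ± 0.32). Serpinb2 had 0 counts in every resting MmSC, MuSC and CD31+ library and 4, 2 and 4 counts in the CD45+ libraries. Members called were 4 higher against MuSCs, 3 higher against CD31+ cells, and 3 higher and 1 lower against CD45+ cells, beside 40.7%, 47% and 56.7% of all genes.

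One day after cardiotoxin, Plaur rose in all 4 compartments and Plau in MuSCs, CD31+ and CD45+ cells. In MmSCs Plau did not pass the test, and its response there was not shown to differ from that of MuSCs (-0.44 ± 0.32, adjusted p = 0.517). Plaur went from 8.70, 9.83 and 9.72 scaled CPM to 77.4, 56.6 and 47.2 in MmSCs (2.69 ± 0.32, adjusted p = 4.53e-07), and from 1.97, 3.79 and 2.79 to 60.7, 60.6 and 68.4 in MuSCs (4.53 ± 0.38, adjusted p = 4.26e-09). In CD31+ cells it went from 7.78, 13.2 and 5.39 to 149, 174 and 115 (4.05 ± 0.33, adjusted p = 7.52e-09), and in CD45+ cells from 71.2, 63.1 and 159.5 to 342, 374 and 295 (1.79 ± 0.27, adjusted p = 2.69e-05). Injured and resting libraries did not overlap in any compartment. In the CD45+ libraries, neutrophil markers rose from a sum of 1731, 911 and 3445 CPM to 4799, 7412 and 5856 CPM. Macrophage markers there went from 27267, 24897 and 20389 CPM to 19406, 18190 and 20405 CPM. The part of these markers in the CD45+ results was not tested.

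Plau rose from 25.1, 43.04 and 31.5 to 165, 194 and 139 scaled CPM in CD31+ cells (2.33 ± 0.25, adjusted p = 3.39e-07) and from 72.1, 56.9 and 31.4 to 147, 111 and 154 in CD45+ cells (1.36 ± 0.24, adjusted p = 0.000136). In MuSCs it rose from 129, 135 and 108 to 164, 239.7 and 200.3 (0.70 ± 0.23, adjusted p = 0.019), a call lost without resting replicate 3 (0.62, adjusted p = 0.0803), without injured replicate 2 (0.57, 0.0922), with library totals (0.49, 0.0998) and without mitochondrial genes and the top gene (0.55, 0.0624). In MmSCs, where it was already high, it was 534, 519.8 and 594 after injury and did not pass (0.26, adjusted p = 0.372; 0.46 and called, adjusted p = 0.0456, with no filter on low counts).

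Plat, in contrast, fell in the 3 compartments that had it. It went from 97.2, 50.3 and 50.7 to 18.6, 22.4 and 15.4 scaled CPM in MuSCs (-1.83 ± 0.36, adjusted p = 0.00026), from 72.2, 78.6 and 75.8 to 39.1, 39.0 and 33.3 in CD31+ cells (-1.03 ± 0.34, adjusted p = 0.032), and from 509, 430 and 312 to 195, 213 and 224 in MmSCs (-0.99 ± 0.32, adjusted p = 0.0168). No injured library overlapped a resting one. In CD45+ cells Plat stayed near 0, at 0.24, 0.29 and 0.87 before and 0, 0 and 4.99 after injury, and did not pass with edgeR (DESeq2 adjusted p = 0.0474, with all injured counts in the library at 4.99). The summed level of the 8 endothelial markers fell in the same libraries, from 85.5 to 98.9 CPM at rest to 12.97 to 18.75 CPM in MmSCs, from 40.8 to 60.2 to 17.8 to 20.2 CPM in MuSCs, and from 11499 to 12134 to 8799 to 9396 CPM in CD31+ cells, and their part in the result was not tested. The CD31+ value stayed between -1.06 and -0.94 but missed the threshold without any single library (adjusted p 0.0612 to 0.101). The MmSC call was lost without resting replicate 1 (-0.66, 0.167), resting replicate 2 (-0.80, 0.101) or injured replicate 1 (-0.92, 0.0703), and with library totals (-0.71, 0.0816). In bulk samples, fewer cells of a type and less RNA per cell cannot be told apart.

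Serpine2 fell in MmSCs from 1458, 1266 and 1417 to 756, 928 and 861 scaled CPM (-0.70 ± 0.26, adjusted p = 0.0307). That call was lost without any of the resting replicates 1, 2 and 3 (-0.51, -0.60 and -0.53; adjusted p = 0.186, 0.117 and 0.16), without injured replicates 1 or 3 (-0.62 and -0.70; 0.122 and 0.0783), with library totals (-0.44, 0.195) and without mitochondrial genes and the top gene (-0.55, 0.0898). The MmSC marker genes fell with it, from a sum of 47795 to 58481 CPM at rest to 17103 to 22130 CPM after injury, and their part in the result was not tested. In MuSCs Serpine2 overlapped, at 24.6, 16.2 and 28.9 before and 17.8, 22.1 and 23.7 after injury, and it stayed at 19.1 or less in CD31+ and CD45+ libraries.

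Serpinb2 appeared after injury in the 3 compartments that had lacked it. MmSCs had 299, 376 and 55 counts (at least 64.8-fold, adjusted p = 0.000123), MuSCs 79, 32 and 16 (at least 9.07-fold, adjusted p = 0.00547) and CD31+ cells 63, 4 and 3 (at least 5.05-fold, adjusted p = 0.0302). These folds pool the libraries of a group, and injured CD31+ replicates 2 and 3 lay at or near the floor of 3 counts. The CD31+ call was lost without resting replicates 1, 2 or 3 (0.092, 0.0717 and 0.0711) and without injured replicate 1 (0.233). In that library leukocyte markers summed to 147.3 CPM, against 10.02 and 11.23 CPM in the other two, and its Il1b level was 55.6 scaled CPM against 0.20 and 0, and their part in the result was not tested. In CD45+ cells Serpinb2 went from 4, 2 and 4 counts to 10, 34 and 47 and did not pass (3.00 ± 1.16, adjusted p = 0.0555), but it passed without injured replicate 1 (3.45, adjusted p = 0.0384) and with DESeq2 (adjusted p = 0.0164). Members called were 2 higher and 2 lower in MmSCs, 3 higher and 1 lower in MuSCs, 3 higher and 1 lower in CD31+ cells and 2 higher in CD45+ cells, beside 41.8%, 38.8%, 23.5% and 34.6% of all genes.

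**Figure D4:**
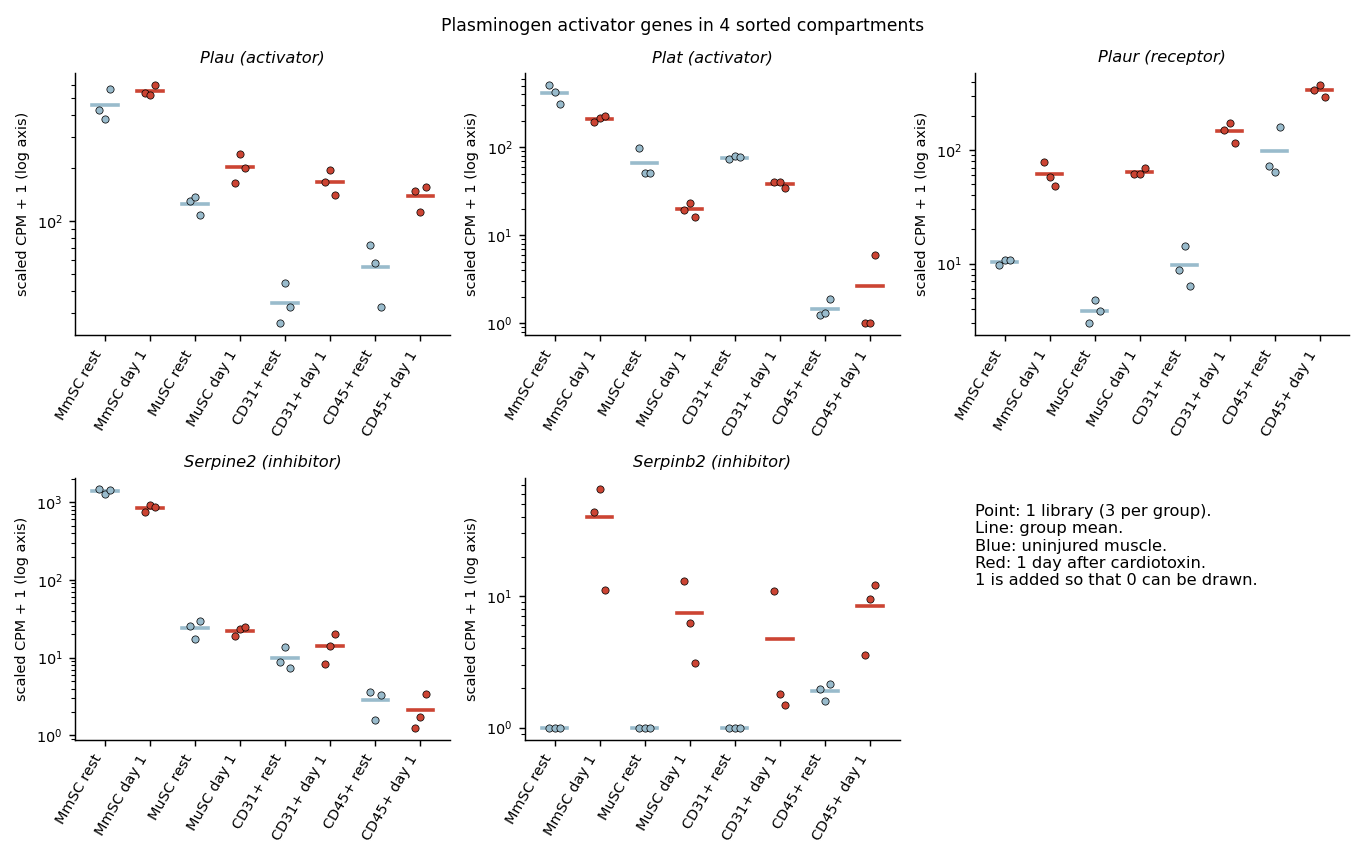
Scaled CPM plus 1 (log axis) of each gene in the 24 libraries of the 4 compartments, at rest (blue) and at day 1 after cardiotoxin (red); points are libraries and lines group means. Plaur rises in every compartment, and Serpine2 lies between 756 and 1458 in MmSCs and at 28.9 or less in the others.

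The size of the injury response was compared between compartments by its own test. Plau rose less in MmSCs than in CD31+ cells (-2.07 ± 0.33, adjusted p = 0.000213) and than in CD45+ cells (-1.095 ± 0.328, adjusted p = 0.0159). Plaur rose less in MmSCs than in MuSCs (-1.84 ± 0.52, adjusted p = 0.029). The Plaur responses of MmSCs and CD31+ cells differed by -1.37 ± 0.45 (adjusted p = 0.0509) and those of MmSCs and CD45+ cells by 0.90 ± 0.41 (adjusted p = 0.118), neither past the threshold, though DESeq2 called the former (adjusted p = 0.0266) and library totals the latter (1.44, adjusted p = 0.0127). The called differences were 1 member in each test, with 12.5%, 25% and 7.64% of all genes called. The Plau difference from CD45+ cells was lost without injured CD45+ replicates 1 or 3 (-0.93 and -0.89; adjusted p = 0.063 and 0.071) or resting MmSC replicate 3 (-0.82, 0.0869), and with library totals (-0.61, 0.18). The Plaur difference was lost without any of 8 libraries, which were resting MmSC replicates 1, 2 and 3, injured MmSC replicates 2 and 3, resting MuSC replicates 1 and 3, and injured MuSC replicate 3 (-1.86 to -1.50, adjusted p 0.0528 to 0.122), with library totals (-1.37, 0.102) and without mitochondrial genes and the top gene (-1.54, 0.0684).

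In injured MmSCs, of 30 pathway genes tested, 4 rose and 13 fell, with a median of -0.43 beside -0.22 for all genes, of which 41.8% were called. Eno1, a glycolytic enzyme that also binds plasminogen, rose by 1.68 ± 0.13. The clearance receptor Lrp1 fell by 1.101 ± 0.21, Mmp2 by 1.62 ± 0.32 and Procr, the endothelial protein C receptor, by 2.04 ± 0.33. Of the same 30 genes, 9 rose and 7 fell in MuSCs, and 10 rose and 3 fell in each of CD31+ and CD45+ cells, beside 38.8%, 23.5% and 34.6% of all genes called.

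In the reporter mice at 12 h, no member passed the unpaired edgeR test. Plaur and Serpinb2 were higher in the Thy1.1+ library of each of the 3 same-numbered pairs. The share of all genes with the same direction in every pair was not counted. Serpinb2 was 1011, 659 and 216 scaled CPM in Thy1.1+ libraries and 510.3, 281 and 115 in Thy1.1- libraries, and Plaur was 365, 389 and 162 against 248, 214 and 108. In the unpaired fit both groups overlapped and neither gene passed (Serpinb2 1.06, adjusted p = 0.601; Plaur 0.69, adjusted p = 0.583), while Serpinb2 passed with no filter on low counts (1.05, adjusted p = 0.000173). With the replicate number as a block the Serpinb2 change was 1.05 (adjusted p = 3.27e-05) and the Plaur change 0.67 (adjusted p = 0.00144). Same-numbered libraries deviated together, though the labels do not say that they share an animal.

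Plau overlapped between Thy1.1+ and Thy1.1- libraries, at 507, 499 and 527 against 413, 594 and 495 scaled CPM, and so did Serpine2, at 1030, 1369 and 1341 against 1152, 1575 and 1766. Plat was 178.3, 158.0 and 156.0 against 205.0, 201.0 and 179.3, which did not overlap on this scale, overlapped on plain CPM (139.3 to 183.2 against 164.3 to 224.7), and did not pass the test (-0.25 ± 0.14, adjusted p = 0.568). Serpine2 and Plat were each lower in the Thy1.1+ library of every same-numbered pair, again without a count of all genes that were. With the replicate number as a block, neither passed in edgeR (Serpine2 -0.25, adjusted p = 0.108, and Plat -0.25, adjusted p = 0.151). The unpaired edgeR fit called 0 members and 0% of all genes, with 0 members and 1258 genes at an unadjusted p under 0.05. DESeq2 called 0 members and 172 genes, and the blocked fit 2 members and 1286 genes.

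In whole muscle at day 7, none of the 4 members tested differed past the threshold between anti-Cxcl5 and IgG, and Serpinb2 was too low to be tested. Plaur was 11.7, 14.2 and 18.0 scaled CPM under the antibody and 8.62, 13.2 and 14.2 under IgG, and Serpine2 was 100.3, 146.7 and 103.2 against 92.1 to 105.5, with overlap in both. Plau was 12.3 to 26.8 against 23.6 to 28.2, Plat was 34.7 to 42.5 against 33.0 to 40.2, and Serpinb2 had 1 count in 1 of 6 libraries. By edgeR, 0 members and 0.03% of all genes were called, with 0 members and 770 genes at an unadjusted p under 0.05; DESeq2 called 0 members and 6 genes.

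In mdx MmSCs, urokinase was higher at 7 and 12.5 weeks than at 2.5 weeks, while its receptor did not pass the test between any ages. Plau was 299.8, 367 and 433 scaled CPM at 2.5 weeks, 1301, 1576 and 1162 at 7 weeks, and 1946 and 1618 at 12.5 weeks. The rise from 2.5 weeks was 1.88 ± 0.15 (adjusted p = 4.42e-07) at 7 weeks and 2.28 ± 0.17 (adjusted p = 2.9e-07) at 12.5 weeks, and both older groups lay above all libraries of the youngest. From 7 to 12.5 weeks it did not pass (0.40 ± 0.17, adjusted p = 0.172). Plaur stayed between 254.5 and 317.7 scaled CPM in all 8 libraries. These comparisons share groups with each other.

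Plat was 504, 694 and 479 scaled CPM at 2.5 weeks and 833, 786 and 837 at 7 weeks (0.55 ± 0.14, adjusted p = 0.00514), without overlap, and 678 and 584 at 12.5 weeks. Serpine2 was 593, 343 and 538, then 532, 642 and 619, then 783 and 654. It was called between 2.5 and 12.5 weeks (0.55 ± 0.19, adjusted p = 0.0428). That call was lost without 2.5-week replicate 3 (0.60, adjusted p = 0.0634) or either 12.5-week library (0.41 and 0.68; 0.282 and 0.0703), and with library totals (0.38, 0.16). With no filter on low counts it was also called between 2.5 and 7 weeks (0.35, adjusted p = 0.0413). Between 2.5 and 12.5 weeks Plat was called without 2.5-week replicate 2 (0.35, adjusted p = 0.023).

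Serpinb2 was highest at 7 weeks and uneven within ages, at 0, 24.9 and 33.4 scaled CPM at 2.5 weeks, 222.5, 252.9 and 33.3 at 7 weeks, and 6.98 and 16.5 at 12.5 weeks. It rose to 7 weeks by 3.14 ± 0.76 (adjusted p = 0.00396) and fell after it by 3.92 ± 0.98 (adjusted p = 0.0283), although 1 library at 7 weeks lay at the level of the highest at 2.5 weeks. DESeq2 called neither (adjusted p = 0.114 and 0.229), and the fall was lost without 7-week replicates 1 or 2 (0.107 and 0.0985) or without either 12.5-week library (0.26 and 0.161). Members called were 3 higher from 2.5 to 7 weeks, 1 lower from 7 to 12.5 weeks and 2 higher from 2.5 to 12.5 weeks, beside 44.6%, 5.9% and 26.3% of all genes. Endothelial markers fell from a sum of 380.1 to 437.6 CPM at 2.5 weeks to 51.5 to 57.6 CPM at 7 weeks, and their part in the results was not tested.

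Of 29 pathway genes tested between 2.5 and 7 weeks, 16 were higher, 5 were lower and 8 were not called, with a median of 0.48 beside -0.02 for all genes, of which 44.6% were called in either direction. Mmp3 rose by 2.37 ± 0.14, Hgf by 1.86 ± 0.25, Eno1 by 1.72 ± 0.14 and Anxa2 by 1.43 ± 0.16. From 7 to 12.5 weeks 4 of 29 rose and 2 fell (5.9% of all genes called), among them Eno1, which fell by 0.81 ± 0.15.

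In MmSCs at day 1 after injury, no member passed the edgeR test between the Il1b genotypes. Plau and Serpine2 overlapped between them, while Plaur, Plat and Serpinb2 did not. The share of all genes without overlap between these few libraries was not counted. The nearest Plaur libraries stood at 261.3 and 261.8 scaled CPM (-0.15, edgeR adjusted p = 0.577). Plau was 6581, 6569 and 5757 scaled CPM in Il1b-KO and 6195 and 5994 in Il1b-WT, Plaur was 253.6, 240.8 and 261.3 against 261.8 and 298.3, and Serpine2 was 646, 627 and 585 against 625 and 628. Plat was 423.6, 431.7 and 431.6 against 557.1 and 546.9 (-0.36 ± 0.08, adjusted p = 0.058), and Serpinb2 was 199.8, 199.0 and 219.6 against 108 and 156 (0.64 ± 0.14, adjusted p = 0.0717), both without overlap and both short of the threshold. The Plat groups were nevertheless called lower by DESeq2 (adjusted p = 0.0444) and the Serpinb2 groups higher (adjusted p = 0.00774), and edgeR with no filter on low counts called both in the same directions (adjusted p = 0.00774 for Plat and 3.58e-06 for Serpinb2). It also called Serpinb2 without Il1b-WT replicate 2 (0.93, adjusted p = 0.000585). edgeR called 0 members, with 2 at an unadjusted p under 0.05 and 1.21% of all genes called, and DESeq2 called 2. Of the 27 pathway genes tested, 1 was called, Itgb1, an integrin chain, which was higher by 0.70 ± 0.11.

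**Figure D5:**
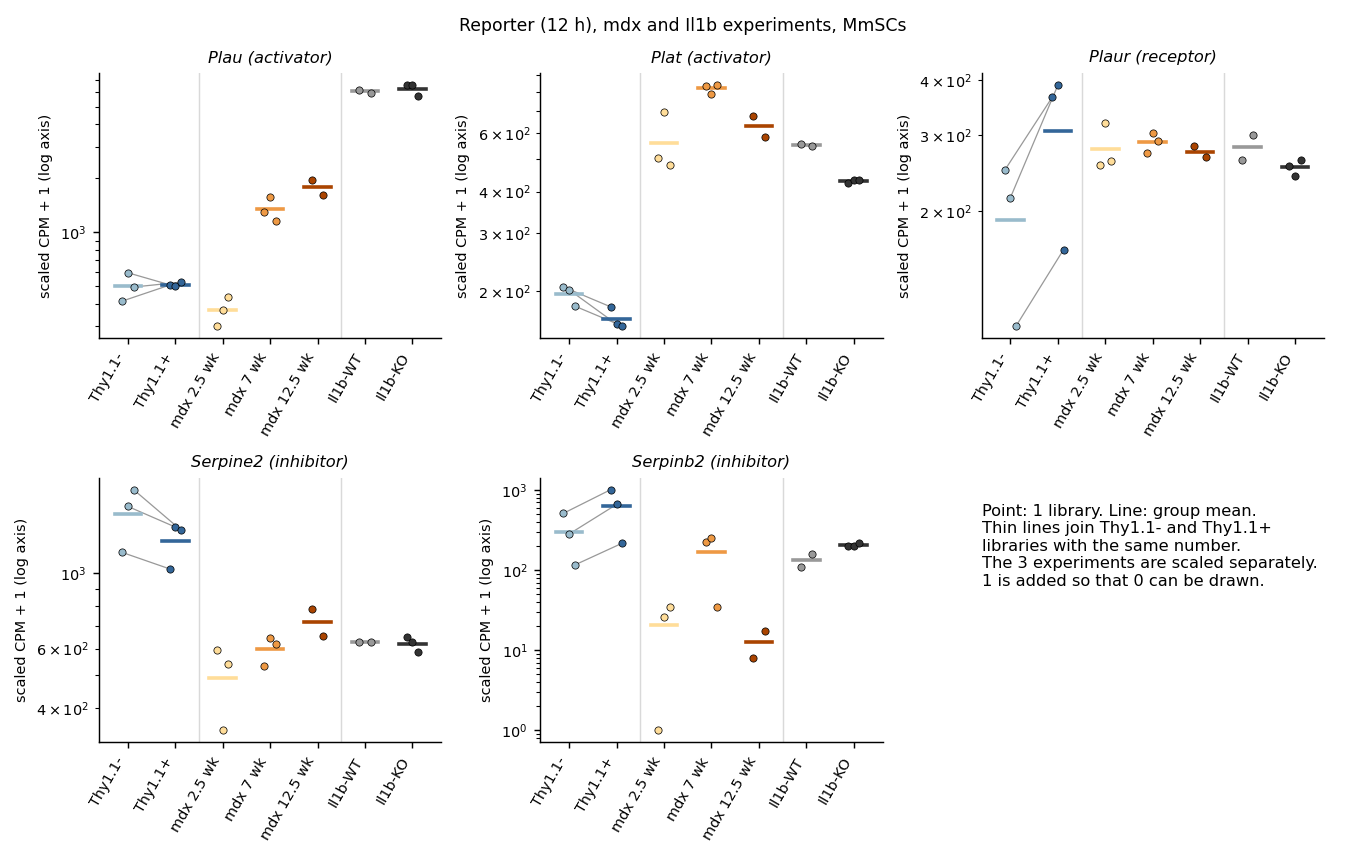
Scaled CPM plus 1 (log axis) of each gene in MmSCs of the reporter, mdx and Il1b experiments; points are libraries, lines group means, and thin lines join Thy1.1- and Thy1.1+ libraries with the same number. Plau is higher at 7 and 12.5 weeks than at 2.5 weeks in mdx mice and stands between 5757 and 6581 in the Il1b experiment.

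Over all 28 groups, on plain CPM that were not scaled across experiments, Plau was highest in the Il1b experiment (6266 ± 557.2 CPM in Il1b-KO, SD, n = 3, and 6088 ± 303.9 in Il1b-WT, SD, n = 2, whose libraries overlapped). After a gap came mdx MmSCs at 12.5 weeks (1659) and 7 weeks (1341), which overlapped, and after another gap the mix at 2 h (819). The 12 groups from injured MmSCs (546.1) down to Osm with TNFa (291.8) overlapped step by step, and whole muscle was lowest at 22.54 to 25.54 CPM. Injured MmSCs at day 1 therefore differed by 11.1-fold between the Il1b-WT group and the C57BL/6J group of the compartment experiment, a comparison across experiments that 1.29% of 9800 genes matched or exceeded and that no test covers. Plaur was highest in Thy1.1+ MmSCs (305.1 CPM) and lowest in resting MuSCs (3.60), and its 12 highest groups, down to Osm with TNFa (134.0), overlapped step by step.

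Plat was highest in 7-week mdx MmSCs (814.4 CPM), above the next group without overlap, and lowest in CD45+ cells (1.40 after injury, 0.47 at rest). Serpine2 was highest in Thy1.1- MmSCs (1504 CPM) and lowest in CD45+ cells (1.83 and 0.94), and every MmSC group, the lowest at 513.8 CPM, lay above whole muscle (119.1 and 94.5) and the other sorted cells. Serpinb2 was highest in Thy1.1+ (633.6 CPM) and Thy1.1- (318.5) MmSCs, which overlapped, and was at 0 in 7 groups.

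Over the 26 groups of sorted cells, the genes whose group means (log2 of CPM plus 1) were most like those of each member were listed among 9699 genes, as a description over groups that partly share experiments and depth. For Plau they were Lif (Pearson r 0.92), Hyou1 (0.90) and Inhba (0.89), and for Plaur Noct (0.90), Cd44 (0.88) and Baz1a (0.86). For Plat they were Fstl1 (0.95), Bmp1 (0.94) and Plpp3 (0.93), for Serpine2 C1s1 (0.98), Adamts2 (0.98) and Col6a2 (0.97), and for Serpinb2 Cxcl3 (0.90), Il1rl1 (0.87) and Cxcl5 (0.86). Among the members themselves the highest Pearson values were 0.84 for Plat with Serpine2, 0.68 for Plaur with Serpinb2 and 0.67 for Plau with Plat. By rank (Spearman rho) the same pairs stood at 0.225, 0.769 and 0.789, so their order depends on the measure.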

How the data were processed

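RNA-seq was available for 70 libraries in 28 groups, taken from the sample labels. The values are raw counts that the authors deposited, in 1 table of 55011 gene symbols with 0 columns of per-sample values left unused. Per the submitters' processing notes, reads were handled with STAR 2.7.3a and featureCounts on mm10 (GRCm38). Not given in the sources used here are the annotation version, strand setting and treatment of shared reads.

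R 4.3.3 and edgeR 4.0.16 were used, with a separate fit for each experiment. Low genes were dropped by filterByExpr (minimum count 10), libraries were scaled by TMM, each group had 1 mean, and p-values of the quasi-likelihood F-test were adjusted by Benjamini-Hochberg over all genes tested. Every adjusted p is edgeR's unless DESeq2 1.42.0 is named. The SE was taken from the log2 change and its F statistic, and the scripts were tested on simulated data. A gene absent from 1 group is compared with a floor of 3 counts per library, on scaled CPM. Counts of the other group are pooled over its libraries, so a bound can rest on 1 library. Scaled CPM stand beside tests, where plain CPM had been planned, and plain CPM are used across experiments. These bounds, like the intervals, hold counting error alone. The labels do not tie libraries to animals, so p-values reflect only how these samples vary, which may be technical.

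The 5 members could be named throughout; of the 5 pathway lists, up to 4 called genes per list and comparison with the smallest p; Il6, Thy1, Il1b, Cxcl5, Pax7, Pecam1, Ptprc and Pdgfra as checks of labels; and the 3 genes most like each member by Pearson r over 26 sorted-cell groups, with a mean CPM of at least 8. A gene that the pathway counts include is not reported here by name. Members, lists and tests were chosen with earlier results of these data known. Same-numbered libraries deviated together only in the reporter experiment (3 pairs, r 0.39 to 0.66), a pairing read from the data, since the labels give shared numbers and no shared animal. Alternatives were DESeq2 size factors, DESeq2, no filter on low counts, a replicate block, no mitochondrial genes or top gene, each library left out, and library totals without scaling factors, the last chosen after seeing the data.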

Additional observations from a re-analysis of the deposited data

Results flagged for a closer look

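The Plaur response to Osm with Il-1b differed from the sum of both single responses by a fitted log2 value of -2.10 (edgeR adjusted p = 1.03e-05), and that of Serpine2 by -0.76 (adjusted p = 0.00583). The injury response of MmSCs differed from that of MuSCs for Plaur by -1.84 (adjusted p = 0.029). For Plau it differed from that of CD31+ cells by -2.07 (adjusted p = 0.000213) and from that of CD45+ cells by -1.095 (adjusted p = 0.0159). Each value was singled out because a test of the difference between groups passed its threshold. The values for Osm with Il-1b include the PBS libraries, which stood apart from the single and paired injections. That difference between libraries and a departure from the sum cannot be told apart.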

How the results depend on the processing

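Each comparison's count of members called was recomputed under every alternative. Only the larger changes in a count are listed, so a comparison not named here may have changed too. For Osm against PBS, library totals lost the Serpine2 call and called Plau and Plat lower. With library totals in place of scaling factors, the count became 1 for Osm with Il-1b against PBS (reported as 3), 1 for Osm against Il-1b (2), 1 for Osm with Il-1b against Il-1b (0), 4 for Osm with TNFa against TNFa (2), 2 for injury in MmSCs (4), 0 for the injury response of MmSCs against MuSCs (1), 2 for that against CD45+ cells (1) and 1 for mdx at 12.5 against 2.5 weeks (2). With no filter on low counts it became 2 for Il-17A (1), 2 for Il-1b against TNFa (1), 1 for Osm with Il-17A against Osm (0), 1 for the departure from additivity of Osm and Il-17A (0), 4 for injury in CD45+ cells (2), 2, 3 and 4 for the injury response of MmSCs against MuSCs, CD31+ and CD45+ cells (1 each), 1 for the reporter (0) and 2 for Il1b-KO (0). With DESeq2 it became 1 for Osm with TNFa against TNFa (2), 2 for the mix against Osm with Il-1b (1), 4 for injury in CD45+ cells (2), 3 and 3 for the injury response against CD31+ and CD45+ cells (1 each), 0 for mdx at 12.5 against 7 weeks (1) and 2 for Il1b-KO (0). Without mitochondrial genes and the top gene it became 0 for the injury response against MuSCs. The replicate block gave 2 for the reporter (0), 2 for Il-1b against TNFa (1) and 2 for the mix against Osm with Il-1b (1); outside the reporter experiment, same-numbered libraries did not deviate together (r -0.12 to 0.18), and the block added 5 calls: Serpinb2 after Osm with Il-1b (7.79, adjusted p = 0.0343) and in injured CD45+ cells (3.37, adjusted p = 0.0325), Plau after Osm with TNFa (-0.42, adjusted p = 0.0467), and Plat for Il-1b against TNFa (0.43, adjusted p = 0.049) and the mix against Osm with Il-1b (0.50, adjusted p = 0.0473). Leaving out 1 library at a time gave counts of 3 to 5 for the mix at 2 h, 1 to 2 for TNFa, 1 to 2 for Osm, 0 to 1 for Il-17A, 1 to 2 for Il-1b against TNFa, 1 for Osm against Il-1b, 1 to 3 for Osm with TNFa against TNFa, 0 to 1 for the mix against Osm with Il-1b, 0 to 1 for the departure of Osm and Il-17A, 2 to 4 for injury in MmSCs, 2 to 3 in CD31+ cells, 0 to 1, 1 to 3 and 0 to 2 for the injury response against MuSCs, CD31+ and CD45+ cells, 0 to 1 and 1 to 3 for mdx at 12.5 against 7 and 2.5 weeks, and 0 to 1 for Il1b-KO. Direction reversed 8 times: Serpine2 for the mix at 2 h with library totals (-0.062), and for 8 h against 2 h with library totals (0.44), no filter (0.01) and without replicate 2 at 2 h or at 8 h (range with 1 library left out -0.143 to 0.102; 0.06 for the latter); Serpinb2 for Osm against Il-1b without Il-1b replicate 1 (range -8.68 to 5.76); and Plat in injured CD45+ cells (range -4.33 to 2.59) and in the response of MmSCs against them (range -3.57 to 3.51), both without injured CD45+ replicate 3. The cause was not tested. Library totals moved the median of all genes by up to 0.55 on the log2 scale. Of 792 single-gene values under other settings, 715 kept direction and side of the threshold, as did 621 of 714 with 1 library left out. Serpinb2 had 0 counts in 7 groups, and the part of depth in this was not tested.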

Other observations

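Within the cytokine experiment, Serpinb2 counts differed widely between libraries of 1 treatment. Replicate 1 held more than replicate 2 in the 5 single or paired injections with any count: 89 and 0 (Il-1b), 93 and 0 (Osm with TNFa), 14 and 0 (Osm), 8 and 0 (Il-17A), and 25 and 8 (Osm with Il-1b). In the mix the order was the other way, at 31 and 84 counts at 2 h and 0 and 2 at 8 h. Cxcl5, a neutrophil-attracting chemokine, was uneven in the same direction in both groups with the widest gap: 11124 and 1308 counts after Il-1b, and 497 and 39 after Osm with TNFa. After Osm with Il-1b its order was the other way, at 2033 and 2552 counts.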
